A study of Mus musculus with 2 samples.

Results

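The Ikaros family comprised 5 genes, Ikzf1 (Ikaros), Ikzf2 (Helios), Ikzf3 (Aiolos), Ikzf4 (Eos) and Ikzf5 (Pegasus), selected by their GENCODE M21 symbols among the 55536 genes quantified. Together they carry 34 annotated transcripts. The data are polyadenylated RNA profiles of primary activated regulatory T cells from 1 adult male mouse of the strain Foxp3CreERT2 x Rosa26YFP, aged 4 months. In this strain a tamoxifen-inducible Cre recombinase is placed at Foxp3 and a gene for yellow fluorescent protein at Rosa26, and the source label traces the cells to bone marrow hematopoietic cells. No source used here says how the cells were sorted or activated. Both libraries, called library 1 and library 2 after their technical replicate numbers, came from biological replicate 1, so the data formed 1 group without a second condition. Every mean ± SD is over these 2 technical libraries (n = 2) and every p-value compares the libraries, so neither describes the spread between animals.

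Ikaros family proteins are C2H2 zinc finger transcription factors. Fingers in the N-terminal part bind DNA, and a pair at the C-terminus joins family members into homodimers and heterodimers. Ikaros is required for lymphocyte development, Aiolos is best known from B cells and is also expressed in T cells, Helios marks a large fraction of regulatory T cells and stabilises their identity, and Eos cooperates with Foxp3 in gene silencing. Pegasus is the most divergent member, with a DNA binding preference of its own.

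The estimated gene reads numbered 15076048 in library 1 and 14635787 in library 2. The labelled identity was checked against marker genes. Cd3e, Cd3g, Cd4 and Trac summed to 4590 TPM in library 1 and 4820 TPM in library 2 (TPM scales reads by transcript length to a fixed sum over all transcripts of a library). Il2ra and Ctla4 averaged 239 and 232 TPM, and Foxp3, which defines the lineage, averaged 22.4 ± 2.06 TPM. B cell markers, relevant because B cells also express Ikzf1 and Ikzf3, summed to 1.93 TPM in library 1 and 2.17 TPM in library 2, with Pax5 at 0 TPM and 0.08 TPM. Markers of the plasmacytoid dendritic cell list summed to 45.7 and 76.8 TPM, from Bst2 (30.39 and 57.87 TPM), Ccr9 (11.56 and 16.23 TPM) and Tcf4 (3.76 and 2.74 TPM), while Siglech had no reads. Summed levels were 1.17 and 2.31 TPM for NK cells with Ncr1 at 0, 11.4 and 15.6 TPM for Cd8a with Cd8b1, 1.36 and 3.60 TPM for myeloid cells with Cd14 at 0, and 13.1 and 11.6 TPM for erythroid cells. The part of these other cells in the family's values was not tested.

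The predicted products show what sets the members apart. For each gene the complete coding transcript with the most reads was translated from GENCODE M21. Ikzf1-203 (535 residues), Ikzf2-201 (526), Ikzf3-201 (507) and Ikzf4-201 (586) each held 6 matches to the C2H2 finger pattern, 4 before the midpoint of the protein and 2 after it. Ikzf5-201 (419 residues) held 5, with 3 before the midpoint and 2 after it. Over whole products, Ikzf1 shared 57.2% of aligned residues with Ikzf2, 55.8% with Ikzf3 and 54.0% with Ikzf4. Ikzf2 shared 51.7% with Ikzf3 and 57.1% with Ikzf4, and Ikzf3 shared 50.1% with Ikzf4. Ikzf5 shared between 27.8% (with Ikzf3) and 32.0% (with Ikzf2). The second finger from the N-terminus, one of those that contact DNA, was also compared at the level of bases. The 63 coding bases of that finger follow, 5′ to 3′ on the coding strand, with the codons of the zinc-holding cysteines and histidines in capitals. The positions on mm10 are chr11:11754024-11754086 (plus strand) for Ikzf1, chr1:69570581-69570643 (minus) for Ikzf2, chr11:98488940-98489002 (minus) for Ikzf3, chr10:128640229-128640291 (minus) for Ikzf4 and chr7:131392501-131392563 (minus) for Ikzf5.
Ikzf1: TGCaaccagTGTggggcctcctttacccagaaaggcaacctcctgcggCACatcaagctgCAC
Ikzf2: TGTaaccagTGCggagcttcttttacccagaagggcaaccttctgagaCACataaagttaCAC
Ikzf3: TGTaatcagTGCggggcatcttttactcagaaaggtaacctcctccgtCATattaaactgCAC
Ikzf4: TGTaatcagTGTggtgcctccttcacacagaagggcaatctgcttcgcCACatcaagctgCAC
Ikzf5: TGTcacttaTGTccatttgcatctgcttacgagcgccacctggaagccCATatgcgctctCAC
All 21 encoded residues were identical among Ikzf1, Ikzf2, Ikzf3 and Ikzf4, although only 48 to 53 of the 63 bases were, so the differences among these genes in this finger are synonymous. The second finger of Ikzf5 shared 5 of the 21 residues and 26 to 30 of the 63 bases with each of the others. Fingers were paired by order alone, and Ikzf5 has 3 before the midpoint where the others have 4. Whether its second finger is the counterpart of theirs was not tested, so these values do not measure divergence of a matched finger.

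Each of the 5 members reached 1 TPM in both libraries. Helios RNA was the most abundant in the M21 tables. It was not so in the separate M4 counts per kb of merged exons, where Ikzf1 and Ikzf4 stood above it. Ikaros, Aiolos and Eos formed a middle group and Pegasus was lowest. Ikzf2 (ENSMUSG00000025997.13, chr1:69531214-69687245, minus strand) had 470.6 TPM in library 1 and 466.33 TPM in library 2, from 23837 and 22281 reads. It averaged 468 ± 3.02 TPM and held 61.5% ± 0.51 of the summed TPM of the family. That sum was 770 TPM in library 1 and 754 TPM in library 2. In bulk RNA such a level does not tell how many cells carry the transcript from how much each cell carries.

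Ikzf1 (ENSMUSG00000018654.17, chr11:11685003-11772926, plus strand) had 105.77 TPM in library 1 and 99.85 TPM in library 2, from 5413 and 4728 reads. Ikzf3 (ENSMUSG00000018168.8, chr11:98464902-98546031, minus strand) followed with 93.97 and 91.95 TPM, from 3182 and 2959 reads. Ikzf4 (ENSMUSG00000002578.17, chr10:128630843-128645991, minus strand) had 78.05 and 73.09 TPM, from 3550 and 3230 reads. These 3 genes held 13.5% ± 0.35, 12.2% ± 0.0075 and 9.91% ± 0.31 of the summed TPM. Ikzf5 (ENSMUSG00000040167.16, chr7:131388652-131410521, minus strand) had 21.68 TPM in library 1 and 22.95 TPM in library 2, from 834 and 909 reads, which is 2.93% ± 0.16 of the sum.

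**Figure D1:**
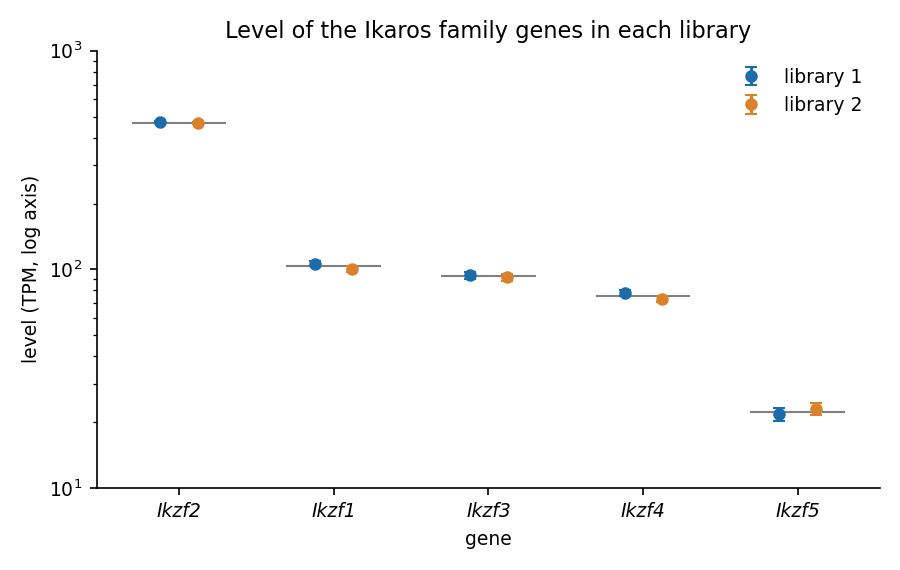
Level of each Ikaros family gene in M21 TPM (log axis) in library 1 (blue) and library 2 (orange), with 95% Poisson intervals of the reads as bars, hidden by the points where narrow, and a grey line at the mean of both libraries. Ikzf2 lies near 468 TPM, Ikzf1, Ikzf3 and Ikzf4 lie between 73.09 and 105.77 TPM, and Ikzf5 lies near 22.3 TPM.

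Neighbours in this order did not overlap between libraries, but their separation was uneven. Ikzf2 exceeded Ikzf1 4.45-fold in library 1 and 4.67-fold in library 2 (4.56 ± 0.16). Ikzf4 exceeded Ikzf5 3.60-fold and 3.18-fold (3.39 ± 0.29). By contrast, Ikzf1 exceeded Ikzf3 only 1.13-fold and 1.09-fold (1.11 ± 0.028), and the lower Ikzf1 library stood 5.88 TPM above the higher Ikzf3 library. Ikzf3 exceeded Ikzf4 1.20-fold and 1.26-fold (1.23 ± 0.038), an order that turned round when reads were divided by merged exon length (-0.69 on the log2 scale). The exact 95% Poisson intervals, which cover counting error only, were 103 to 109 TPM in library 1 and 97.0 to 103 TPM in library 2 for Ikzf1, against 90.7 to 97.3 and 88.7 to 95.3 TPM for Ikzf3. Those of Ikzf1 in library 2 and Ikzf3 in library 1 overlapped. The authors' deposited credibility intervals of both genes, whose level is not stated, overlapped too. They were 84.6 to 94.1 TPM for Ikzf1 in library 2 and 78.9 to 88.7 TPM for Ikzf3 in library 1. These intervals surround the posterior means (89.3 and 83.81 TPM). The TPM reported here (99.85 and 93.97) lies above both, so they are not error bars of it. By TPM the step from Ikzf1 to Ikzf3 was the narrowest of the order.

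Against the rest of the transcriptome, Ikzf2 ranked 250 among 22028 protein-coding genes by mean TPM, above 98.9% of them. Ikzf1 ranked 1185, Ikzf3 1312 and Ikzf4 1662, each above at least 92.5% of protein-coding genes. Ikzf5, at rank 4454, was still just above the median of 18.1 TPM of the 10171 protein-coding genes at 1 TPM or more in both libraries. Among the 399 protein-coding genes whose symbol starts with Zfp or Ikzf, Ikzf2 was first, followed by Zfp706 (357 ± 4.76 TPM) and Zfp207 (239 ± 2.15 TPM). Ikzf1, Ikzf3, Ikzf4 and Ikzf5 took ranks 4, 5, 9 and 50 in that class, in which Zfp genes had a median of 4.80 TPM.

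The share of a gene's TPM on transcripts annotated as protein-coding differed widely between members. Ikzf2 carried the largest noncoding part: transcripts annotated as protein-coding held 33.8% of its TPM in library 1 and 32.7% in library 2. The same share was 64.4% ± 0.41 for Ikzf3, 60.8% ± 0.45 for Ikzf4, 97.1% ± 4.2 for Ikzf5 and 100% for Ikzf1, whose 6 transcripts are all annotated as coding. Restricted to coding transcripts, Ikzf2 averaged 156 ± 4.9 TPM and Ikzf1 103 ± 4.2 TPM, with 59.9 ± 1.3 TPM for Ikzf3, 45.9 ± 1.8 TPM for Ikzf4 and 21.6 ± 0.057 TPM for Ikzf5. On this scale too Helios was the highest of the family, at 40.3% of the coding sum. The coding label includes incomplete transcripts, which held 11.5% ± 2.9 of TPM for Ikzf1 and 23.2% ± 8.0 for Ikzf5. Complete products with the full set of fingers held 82.1% ± 1.6 of TPM for Ikzf1 and 69.2% ± 2.4 for Ikzf5. Such products held 30.3% ± 0.21 for Ikzf2, 64.4% ± 0.41 for Ikzf3 and 60.8% ± 0.45 for Ikzf4.

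A share of TPM and a share of reads answer different questions, since a long transcript yields more reads per molecule. By reads, protein-coding transcripts held 69.0% ± 0.47 of Ikzf2, 84.8% ± 0.96 of Ikzf3, 81.7% ± 0.39 of Ikzf4 and 97.9% ± 3.0 of Ikzf5. Both measures rest on the authors' division of reads among overlapping transcripts, and the precision of that division is not covered by the SD of the libraries. Of the 34 transcripts, 19 reached 5% of their gene by TPM or reads in either library, and 4 had no reads in either.

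**Figure D2:**
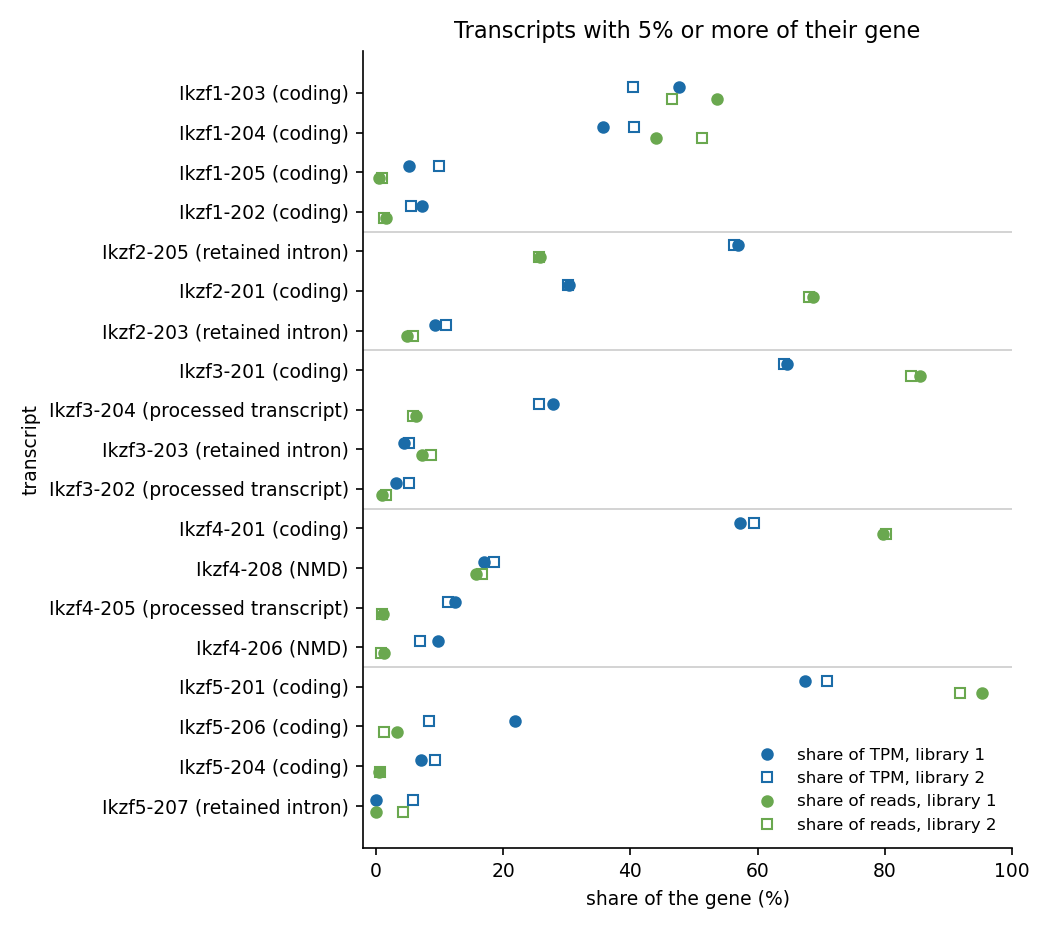
Share of each gene (percent) held by each of the 19 transcripts at 5% or more, as share of TPM (blue) and share of reads (green) in library 1 (filled circles) and library 2 (open squares). NMD stands for nonsense-mediated decay. Ikzf2-205 leads Ikzf2 by TPM at 56.6%, while Ikzf2-201 leads by reads at 68.4%.

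The authors' division of reads assigned most of Ikzf2 to a full-length coding transcript and a short one annotated as running into an intron. Junctions and intron coverage were not examined. Whether reads of the intron stretch come from a separate short transcript or from unspliced Ikzf2 RNA was not tested. Ikzf2-201, 9278 bases long and encoding the 526-residue product with 6 fingers, had 143.01 TPM in library 1 and 140.56 TPM in library 2, from 16368 and 15183 reads. This was 30.3% ± 0.18 of the gene's TPM and 68.4% ± 0.37 of its reads. Ikzf2-205, a retained-intron transcript of 1905 bases, had 267.62 and 262.43 TPM, from 6160 and 5701 reads, or 56.6% ± 0.42 of TPM and 25.7% ± 0.18 of reads. A further retained-intron transcript, Ikzf2-203, held 10.2% ± 1.3 of TPM, from 1152 and 1281 reads. The libraries lay close together for both leading transcripts, and Ikzf2-205 stood above Ikzf2-201 by TPM and below it by reads in each.

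The retained sequence is a single stretch. Ikzf2-205 ends in an exon of 1756 bases (chr1:69681559-69683314), all of which the slightly longer last exon of Ikzf2-203 also contains. It is made of a 105-base exon (chr1:69683210-69683314), which all 9 Ikzf2 transcripts contain, and of 1651 bases of the intron after it. Both transcripts end before the exons that encode the fingers. The exon end reads as follows when spliced and when continued into the intron, 5′ to 3′ on the minus strand, with the exon in lower case and what follows it in capitals. The spliced form joins chr1:69683210 to chr1:69578047, and the unspliced form spans chr1:69683195-69683224.
Ikzf2-201: gtcacatgacaagcaCAAATTCTGTAAAGC
Ikzf2-205: gtcacatgacaagcaGTAAGTCTTCATTTT
The intron opens with the letters GTAAGT, the start of a standard donor splice site. Other complete Ikzf2 products with fewer fingers were scarce: together they took 0.928% ± 0.23 of TPM. Among them was Ikzf2-202, which uses 189 of the 267 bases of the next exon (chr1:69577781-69578047) and has 5 fingers, with 59 and 82 reads. Gm28112, a noncoding gene annotated within an Ikzf2 intron on the same strand and sharing no exonic base with it, had 58.42 TPM in library 1 and 44.69 TPM in library 2.

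**Figure D3:**
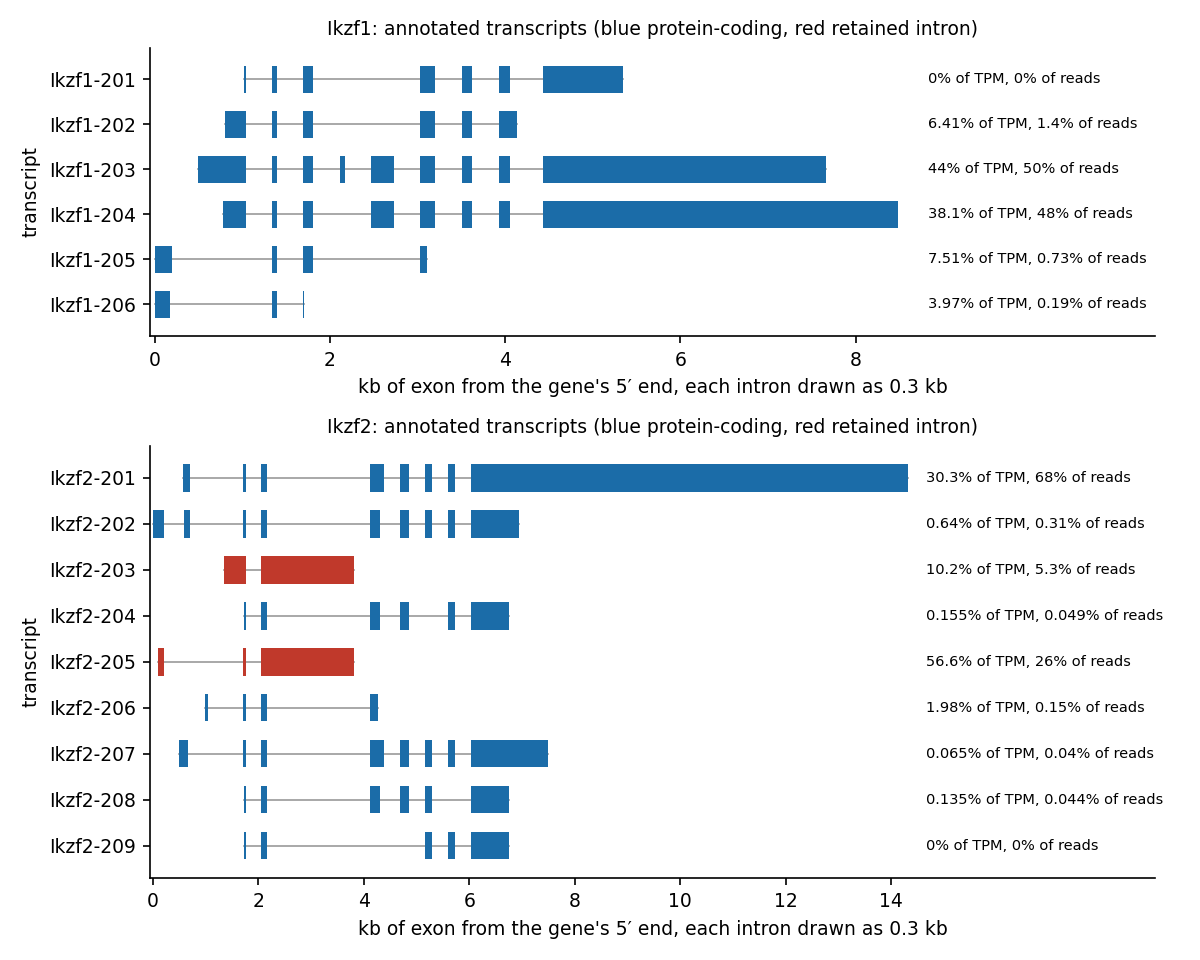
Exons of every annotated Ikzf1 and Ikzf2 transcript, drawn to scale in kb from the 5′ end with each intron shortened to 0.3 kb, with the mean share of TPM and of reads at the right. Blue marks protein-coding and red marks retained-intron transcripts, and the retained-intron transcripts of Ikzf2, with 66.8% of TPM and 31.0% of reads together, end before the finger-encoding exons.

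Ikzf1 RNA was almost evenly divided between 2 forms of the full-length protein. Ikzf1-203, encoding 535 residues, had 50.37 TPM in library 1 and 40.40 TPM in library 2, from 2904 and 2198 reads. Ikzf1-204, encoding 515 residues, had 37.67 and 40.44 TPM, from 2389 and 2420 reads. Their order turned between the libraries: the ratio of reads of Ikzf1-203 to Ikzf1-204 was 1.22 in library 1 and 0.908 in library 2. In TPM, Ikzf1-203 held 47.63% of the gene in library 1 and 40.46% in library 2, and Ikzf1-204 held 35.62% and 40.50%. No leading form of Ikzf1 can be named from these data. For the other 4 genes the same transcript led in both libraries.

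The coding difference between these forms is a 60-base cassette exon (chr11:11740950-11741009), which adds 20 codons in frame ahead of the first finger and is present in Ikzf1-203 alone. It stands here in capitals with 15 bases of each neighbouring exon, followed by the junction of Ikzf1-204 without it (chr11:11707904 joined to chr11:11748311), where capitals mark the downstream exon. Both are 5′ to 3′ on the plus strand.
Ikzf1-203: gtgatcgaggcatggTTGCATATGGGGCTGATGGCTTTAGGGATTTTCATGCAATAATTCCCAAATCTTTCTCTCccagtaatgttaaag
Ikzf1-204: gtgatcgaggcatggCCAGTAATGTTAAAG
These transcripts also differ in the first exon and in the length of the last, so their read shares do not rest on the cassette alone. The forms with the full set of 6 fingers together held 82.1% ± 1.6 of Ikzf1 TPM and 97.7% ± 0.077 of its reads. Dominant-negative Ikaros isoforms, known from lymphocytes, lack DNA-binding fingers. Here Ikzf1-202, which lacks the 261-base exon after the cassette (chr11:11748311-11748571) and ends after 198 residues with 3 fingers, had 82 and 56 reads, 6.41% ± 1.2 of TPM and 1.35% ± 0.24 of reads. Ikzf1-201, which lacks the same exon and encodes 5 fingers, 3 before the midpoint and 2 after it, had no reads. Both transcripts keep 3 N-terminal fingers, so their reads do not show the level of dominant-negative forms. Whether either acts as such a form was not tested. The short Ikzf1-205 (446 bases, annotated as incomplete) had 27 and 46 reads, and 7.51% ± 3.4 of TPM.

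Aiolos RNA was mostly the full-length form. Ikzf3-201, with 6 fingers, had 60.78 TPM in library 1 and 58.94 TPM in library 2, which is 64.4% ± 0.41 of TPM and 84.8% ± 0.96 of reads. Ikzf3-204, a noncoding processed transcript of 670 bases, held 26.7% ± 1.5 of TPM from 201 and 171 reads. The retained-intron transcript Ikzf3-203 held 4.75% ± 0.59 of TPM and 7.89% ± 0.94 of reads, and the processed transcript Ikzf3-202 held 4.16% ± 1.4 of TPM from 30 and 45 reads.

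Part of the Eos RNA was assigned to nonsense-mediated decay transcripts, which carry an early stop codon and are normally degraded. Ikzf4-201, encoding all 6 fingers, had 44.74 TPM in library 1 and 43.41 TPM in library 2, or 58.4% ± 1.5 of TPM and 80.0% ± 0.36 of reads. Ikzf4-208, a nonsense-mediated decay transcript of 3449 bases with a reading frame of 71 residues and no finger, had 13.24 and 13.50 TPM, from 558 and 537 reads, or 17.7% ± 1.1 of TPM and 16.2% ± 0.64 of reads. With Ikzf4-206 (8.32% ± 2.0 of TPM, 42 and 26 reads) this class took 26.0% ± 0.96 of Ikzf4 TPM. No transcript of the other 4 genes carries that annotation. The processed transcript Ikzf4-205 held 11.9% ± 0.77 of TPM from 38 and 30 reads.

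Pegasus was represented by 1 transcript in nearly all its reads. Ikzf5-201, encoding all 5 fingers of that protein, had 795 and 835 reads, 93.6% ± 2.5 of the gene, and 69.2% ± 2.4 of TPM. The short incomplete transcripts Ikzf5-206 and Ikzf5-204 took 15.1% ± 9.5 and 8.18% ± 1.5 of TPM from 28 and 11 reads and from 4 and 6 reads in library 1 and library 2. Ikzf5-207, a retained-intron transcript, had no reads in library 1 and 38 in library 2. With so few reads, the TPM shares of these 3 transcripts are imprecise. Ikzf5 also shares 4652 exonic bases with Pstk on the opposite strand, which had 29.96 TPM in library 1 and 22.33 TPM in library 2. No source used here states whether the libraries kept strand, so reads of the 2 genes may not be separable. Exonic overlap on the opposite strand was 183 bases with Gm44624 for Ikzf5, 144 bases with Gm29114 for Ikzf2 and 37 bases with Gm26876 for Ikzf4, and none of these neighbours exceeded 2.82 TPM.

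Differences between the libraries were small for all members. As log2 ratios of library 1 over library 2, Ikzf1 reached 0.15 (95% interval 0.10 to 0.21, exact binomial test with Benjamini-Hochberg adjusted p = 2.70e-06), Ikzf2 0.05 (0.03 to 0.08, adjusted p = 5.57e-04) and Ikzf4 0.09 (0.02 to 0.16, adjusted p = 0.0357). Ikzf3 was not called at 0.06 (-0.01 to 0.13, exact binomial adjusted p = 0.231), nor was Ikzf5 at -0.17 (-0.30 to -0.03, adjusted p = 0.0637). Thus 3 of 5 members were called, all higher in library 1. Of the 17271 genes tested with a summed count of 10 or more, 24.3% were called, 11.6% with more reads in library 1 and 12.7% with more in library 2. The differences are small, they compare 2 libraries of the same cells, and the test takes counting error as the only source of spread. With a preset spread between libraries (edgeR's exact test at a dispersion of 0.01) no member was called, and 0 had an unadjusted p under 0.05. Over all genes tested, that test called 2.84%. Of 21 cell type markers tested, 8 were called, all higher in library 2: Cd3e, Cd4, Ctla4, Bst2, Ccr9, Cd8b1, Lyz2 and Csf1r. Among these, Cd4 had 6043 reads in library 1 and 7884 in library 2, and Lyz2 had 10 and 42.

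A separate deposited table gives whole-number counts per gene on GENCODE M4, and there the family looked different. Its totals were 3478224 counts in library 1 and 3475360 in library 2, below the gene reads of the M21 tables. Ikzf2 had 1207 and 1099 counts, which is 5.00% of its M21 reads. The same percentage was 21.7% for Ikzf1 (1158 and 1043 counts), 21.4% for Ikzf3 (702 and 612), 34.5% for Ikzf4 (1221 and 1117) and 8.43% for Ikzf5 (70 and 77). Within each gene the libraries had nearly the same percentage, while between genes it ran from 5.00% to 34.5%. Per kb of merged M21 exons, Ikzf4 then had 195 ± 12 counts, Ikzf1 190 ± 14, Ikzf2 99.3 ± 6.6, Ikzf3 75.1 ± 7.3 and Ikzf5 12.8 ± 0.87. Per kb, Ikzf2 therefore stood below both Ikzf1 and Ikzf4 in the M4 table, although its whole counts there exceeded those of Ikzf1. In the M21 tables it stood above both, with 1990 reads per kb against 878 for Ikzf1 and 565 for Ikzf4.

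Across the transcriptome the ratio of M4 counts to M21 reads was nearly flat at low read density and lower in the denser classes. Among the 8829 genes with 100 reads or more, the median M4 count was 40.0% of the M21 reads below 50 reads per kb, 44.3% at 50 to 100, 43.9% at 100 to 200 and 42.7% at 200 to 500. It was 35.8% at 500 to 1000, 25.5% at 1000 to 2000, 14.0% at 2000 to 5000 and 2.03% above 5000. Within their own density classes, Ikzf4 lay at the 47.2 percentile (722 genes), Ikzf1 at 24.7 in the same class, Ikzf3 at 18.2 (1778 genes), Ikzf2 at 14.8 (345 genes) and Ikzf5 at 6.37 (2009 genes). The file listing gives a separate alignment file for each table, and no source used here names the counter or filters behind the M4 counts. Their part in the difference was not tested.

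**Figure D4:**
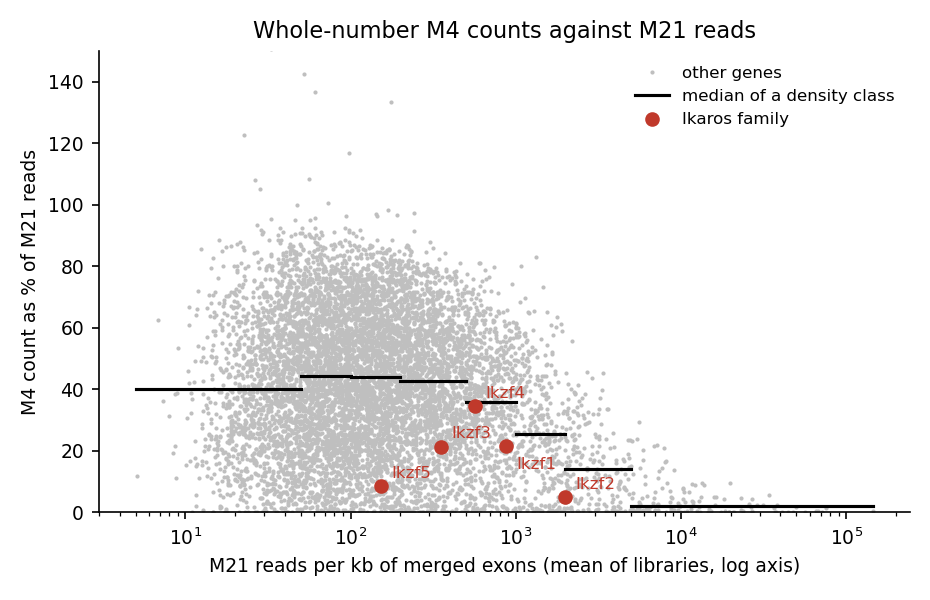
M4 counts as a percentage of M21 reads (vertical axis, cut at 150%, with 9 genes above it) against M21 reads per kb of merged exons (log axis) for genes with 100 reads or more. Black lines are medians of density classes, falling to 2.03% in the densest, and red points are the 5 Ikaros family genes, from 5.00% for Ikzf2 to 34.5% for Ikzf4.

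**Figure D5:**
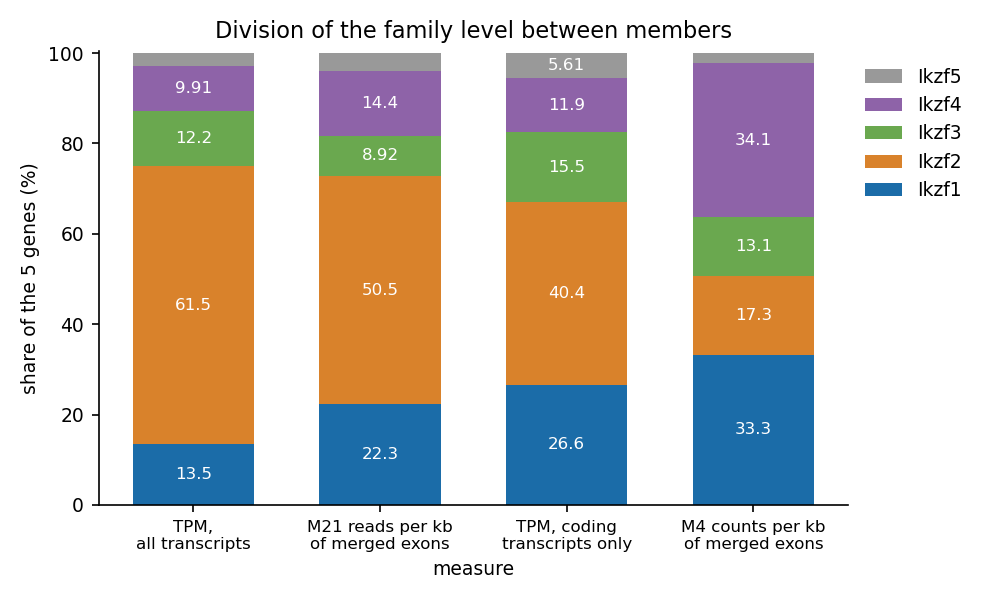
Share of the summed family level (percent) held by each member under 4 measures, as means of both libraries. Ikzf2 holds 61.5% by TPM over all transcripts, 50.5% by M21 reads per kb, 40.3% by TPM over coding transcripts and 17.3% by M4 counts per kb.

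Partners through which Ikaros proteins act on chromatin were broadly expressed. Of 47 genes listed as partners, regulators or reported targets, 40 reached 1 TPM in both libraries and 8 averaged 100 TPM or more. Those 40 include every NuRD, Sin3, CtBP and SWI/SNF gene listed. Among all protein-coding genes, 10171 of 22028 reached 1 TPM in both libraries. All 13 subunits of NuRD, the nucleosome remodelling and deacetylase complex that Ikaros recruits, were above 10 TPM. They were led by the histone-binding subunit Rbbp4 (307 ± 7.12 TPM), the deacetylase Hdac1 (178 ± 11.4 TPM) and the histone-binding subunit Rbbp7 (126 ± 6.83 TPM), and Mta1 was lowest at 12.2 ± 0.255 TPM. The remodelling ATPase Chd4, the Ikaros-bound core of NuRD, had 37.35 TPM in library 1 and 40.04 TPM in library 2. Sin3 and CtBP corepressors (5 genes) ran between 87.0 ± 0.163 TPM for Sin3b and 3.39 ± 0.113 TPM for Ctbp2, with Sin3a at 27.3 ± 2.83 TPM and Ctbp1 at 20.49 TPM in library 1 and 21.50 TPM in library 2. Listed SWI/SNF remodelling subunits (5 genes) were led by Smarcb1 (63.1 ± 9.05 TPM), Arid1a (60.4 ± 0.926 TPM) and Smarcc1 (22.0 ± 1.67 TPM), with Smarcd1 lowest at 7.25 ± 1.04 TPM.

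Genes of the enzymes that modify Ikaros proteins were also present. Casein kinase 2 phosphorylates Ikaros and protein phosphatase 1 reverses it. Ppp1ca, a catalytic subunit of the phosphatase, reached 723 ± 12.7 TPM, Csnk2b 214 ± 10.3 TPM and Ppp1cb 118 ± 2.86 TPM, while Csnk2a2 was lowest of these 6 genes at 11.3 ± 1.2 TPM and the kinase subunit Csnk2a1 averaged 47.0 ± 6.29 TPM. The cereblon ubiquitin ligase degrades Ikaros and Aiolos in human cells exposed to thalidomide derivatives. Its components ran from Rbx1 (276 ± 2.28 TPM), the substrate receptor Crbn (129 ± 3.59 TPM) and Ddb1 (67.4 ± 10.2 TPM) down to Cul4a (10.1 ± 2.74 TPM).

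Genes reported as targets of the family in lymphocytes were mostly low. Of 12, 5 reached 1 TPM in both libraries: Satb1 (47.3 ± 0.891 TPM), a chromatin organiser, Dtx1 (35.3 ± 1.52 TPM), a Notch pathway ligase, the cytokine genes Il10 (11.2 ± 1.16 TPM) and Ifng, and Tbx21. Il2, which the family represses in several T cell settings, had 0.86 TPM in library 1 and 1.18 TPM in library 2, from 12 and 15 reads. Notch3 had no reads in either library, and Hes1, Ptcra, Igll1 and Dntt had 1 to 6 reads in both libraries together. Without a second condition these levels do not show regulation by any member.

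Between the libraries, 13 of the 42 genes tested in these lists were called, 5 higher in library 1 and 8 higher in library 2, beside 24.3% of all genes tested. Those higher in library 1 were Rbbp4, Rbbp7, Mbd2, Csnk2a1 and Crbn. Those higher in library 2 were Hdac1, Mta2, Chd3, Gatad2a, Gatad2b, Smarcb1, Ddb1 and Cul4a. The ratio farthest from 0 among them was -0.49 on the log2 scale, for the NuRD subunit Mta2, with 1598 reads in library 1 and 2183 in library 2 (exact binomial adjusted p = 3.33e-23). No Sin3, CtBP or target gene was called. With edgeR's exact test at a dispersion of 0.01, 0 of these list genes were called, beside 2.84% of all genes tested. At an unadjusted p under 0.05 that test had 2. The M4 table gave 3 by the exact binomial test, beside 9.95% of the genes tested there.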

How the data were processed

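RNA with poly(A) tails from 2 technical libraries of 1 biological sample was analysed. The authors deposited gene and transcript tables on mm10 with GENCODE M21, per the file listing. The quantification tool is not stated in any source used here. Per the file headers, the deposited tables give an expected count (estimated reads, not necessarily whole), TPM and FPKM (scaled by effective length), isoform percent, posterior means and credibility intervals, whose bounds are treated as scores of unstated level. A further deposited table holds whole-number counts per gene on GENCODE M4. Neither its counter nor any filter is stated.

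Entries that name no gene held 0.142% of reads in library 1 and 0.186% in library 2 and entered neither library sizes nor tests. Levels are deposited TPM. Shares of reads use expected counts. After rounding of expected counts, genes with a summed count of 10 or more underwent a two-sided exact binomial test (p being the smaller tail doubled) against library 1's 50.7% share of gene reads, with Benjamini-Hochberg adjustment at 0.05. Log2 ratios add 0.5 to each count. M4 identifiers were matched without version numbers (22195 genes), and both kinds of count were divided by merged M21 exon length. Gene names, exons and coding sequences came from GENCODE M21 on mm10. Products were translated from these coding sequences, since the RefSeq protein table planned for this was not used here, and aligned globally with Biopython 1.88 (BLOSUM62). Fingers were found by a regular expression for the C2H2 pattern. TMM sizes and the exact test came from edgeR 4.0.16 and size factors from DESeq2 1.42.0 (R 4.3.3). The remaining computation ran in Python 3.11.15 with pandas 2.3.3, numpy 2.4.6, scipy 1.17.1 and matplotlib 3.10.9.

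Members, partner lists and markers were chosen with earlier results of these data known. Named were all members, transcripts at 5% or more of their gene, and of each partner or target list the 3 highest, the lowest and every called gene. Any further list gene named was chosen after its values were seen.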

Additional observations from a re-analysis of the deposited data

How the results depend on the processing

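All 5 members stayed at 1 TPM or more under thresholds of 5 and 0.5 TPM and in each library alone. FPKM and rescaling to protein-coding genes left every family share as it was, by construction. Rescaling raised the levels to 126 (Ikzf1), 574 (Ikzf2), 114 (Ikzf3), 92.6 (Ikzf4) and 27.3 TPM (Ikzf5), also by construction. Posterior mean TPM gave 92.2, 416, 82.7, 68.5 and 20.97 TPM in the same order, and a share of 12.1% for Ikzf3. Coding transcripts alone gave 156 (Ikzf2), 59.9 (Ikzf3) and 45.9 TPM (Ikzf4), with family shares of 26.6%, 40.3%, 15.5%, 11.9% and 5.61% for Ikzf1 to Ikzf5. Reads per kb of merged exons gave shares of 22.3%, 50.5%, 8.92%, 14.4% and 3.89%, and M4 counts per kb gave 33.3%, 17.3%, 13.1%, 34.1% and 2.25%.

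The order of the members depended on the measure. The log2 ratio of Ikzf2 to Ikzf1 was 2.19 by TPM, 1.18 by reads per kb, 0.60 over coding transcripts and reversed to -0.94 by M4 counts per kb. Ikzf3 to Ikzf4 was 0.30 by TPM and 0.38 over coding transcripts, and reversed to -0.69 by reads per kb and -1.38 by M4 counts. Ikzf1 to Ikzf3 was 0.14 by TPM, 1.32 by reads per kb, 1.35 by M4 counts and 0.78 over coding transcripts. Ikzf4 to Ikzf5 was 1.76 by TPM, 1.89, 3.92 and 1.09 by the same measures. The cause of the M4 difference was not tested.

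Shares of the leading transcripts by TPM, taken over reads, were 25.7% (Ikzf2-205), 84.8% (Ikzf3-201), 80.0% (Ikzf4-201) and 93.6% (Ikzf5-201). Ikzf1-203, which led its gene in library 1 only, held 50.1% of reads. Posterior means gave 56.9% for Ikzf4-201 and 64.4% for Ikzf5-201. Among coding transcripts alone Ikzf3-201 held 100% and Ikzf4-201 96.0%, and Ikzf2-205, not being coding, has no value. Coding shares by reads were 69.0% (Ikzf2), 84.8% (Ikzf3) and 81.7% (Ikzf4).

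Between the libraries, TMM and DESeq2 scaling each left 3 members and 13 partner or target genes called. Over all 17271 genes tested, these scalings called 24.2% and 24.3%. Without a filter on low counts 2 members and 12 list genes were called (Ikzf4 at adjusted p = 0.0604, exact binomial), beside 3696 of 29872 genes. The M4 table gave 0 members and 3 list genes by the exact binomial test (4 and 10 at an unadjusted p under 0.05), beside 1092 of 10978 genes. edgeR's exact test at a dispersion of 0.01 gave 0 and 0 (0 and 2 unadjusted), beside 491 of 17271 genes. That dispersion is preset, not estimated. No paired analysis was possible because there is 1 group. Leaving out a library left every level and share within 1 SD, since the SD has only these 2 values, and the test between libraries needs both. Depth limits mainly rare transcripts such as Ikzf5-204, with 4 and 6 reads.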
